A study of Mus musculus with 18 samples.

Results

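The 9 genes Fgf21, Angptl4, Angptl8, Igfbp1, Igfbp2, Fst, Inhbe, Gdf15 and Enho encode secreted proteins of the liver and were followed among the 28030 genes of the deposited count table. They were taken as a list of symbols, with no threshold on a measured value, and each symbol was matched to 1 Ensembl mouse gene ID. RNA sequencing was done on hepatocytes taken from the pericentral zone (around the central vein) or the periportal zone (around the portal vein) of the liver with digitonin. All mice were male, wild-type C57BL/6J, 12 weeks old and kept on normal chow. They had been trained for 3 days to eat within an 8 h daytime window after a 16 h overnight fast, and on the last day received food with 20% sucrose in the drinking water. Fed mice were killed at clock hour 13 after 4 h of feeding. Mice of the 8 h fast lost food and sucrose water at hour 13 and were killed at hour 21, and mice of the 24 h fast were killed at hour 13 of the next day. Only the 8 h groups were therefore killed at another clock hour, and the length of the fast and the clock hour cannot be told apart there. Loss of food and loss of sucrose water came together in a fast, and these cannot be told apart either. Each of the 6 groups of zone and state had 3 libraries, which are not stated to come from separate animals. P-values therefore measure only the spread between libraries, which may be technical.

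Hepatokines are proteins that hepatocytes release into the blood to act on other organs. Insulin and carbohydrate favour some of them in the fed liver, while glucagon, fatty acids acting through the nuclear receptor PPARalpha, and amino acid stress acting through ATF4 favour others during fasting. ANGPTL4 and ANGPTL8 both control lipoprotein lipase and so direct triglyceride to one tissue or another, IGFBP1 and IGFBP2 bind insulin-like growth factors, and follistatin (Fst) neutralises activins.

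The summed level of 8 pericentral markers was 9974 to 18957 CPM (counts divided by the library's size with edgeR's TMM factors) in pericentral libraries and 436 to 2106 CPM in periportal ones. The summed level of 7 periportal markers was 1365 to 4952 CPM and 6525 to 10694 CPM. Pericentral replicate 2 of the 24 h fast stood apart: the pericentral marker Glul was at 111 CPM there, against 928 and 707 CPM in the other two libraries of its group. All 18 libraries held 1.84e+07 to 2.64e+07 estimated counts. Markers of other liver cells were low in all of them: the summed level of 10 Kupffer cell and leukocyte markers was 0.744 to 7.71 CPM in pericentral and 0.605 to 29.2 CPM in periportal libraries. For 8 sinusoidal endothelial markers it was 4.08 to 12.5 and 4.2 to 40.2 CPM, and for 8 stellate cell and fibroblast markers 0.942 to 6.47 and 1.25 to 18.4 CPM. For 5 cholangiocyte markers it was 19.3 to 37.6 and 32.8 to 56.6 CPM. Among these, Krt19 was at 0.506 CPM or less and Cftr at 0.0919 CPM or less. Krt7 ran from 11.1 to 20.2 CPM, Sox9 from 2.42 to 17.4 CPM and Spp1 from 5.39 to 25.1 CPM. In such bulk samples, fewer cells of a type and less RNA per cell cannot be told apart.

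RefSeq promoter windows (GRCm38.p6) were matched for 6 of the 9 genes, with 8 windows in all, and searched on both strands over the 250 bases before each start. A gene was counted where any of its windows held the letters, while the share over the table is per promoter. The core of the amino acid response element, TGATGNAA, the kind of site that ATF4 binds, was found in 3 of the 6, against 3.45% of 32851 promoters in the table. The matches with their flanks are shown because they lie in 3 genes with different patterns in the values, with the core in capitals and the + strand of the genome printed.
Fgf21, chr7:45615611-45615640, gene on the - strand: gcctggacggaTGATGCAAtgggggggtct
Angptl8, chr9:21835369-21835398, gene on the + strand: agccatcagtcTGATGCAAtggctgagcct
Inhbe, chr10:127352011-127352040, gene on the - strand: gtggacatgcaTGATGCAAgaaagaggatg
The Inhbe match lies 181 to 174 bases before the RefSeq start, in a window that overlaps an exon of the GENCODE gene model. The Fgf21 match lies 139 to 132 bases and the Angptl8 match 130 to 123 bases before the start.

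The letters CAAAACA, the insulin response sequence described for Igfbp1, were found in 1 of the 6, Igfbp1 itself, and in 5.56% of all promoters. The Igfbp1 and Angptl8 promoters are printed because these genes moved in opposite directions and among the farthest of the 9. In the first the insulin response sequence is in capitals (108 to 102 bases before the start), in the second the amino acid response element core.
Igfbp1 promoter, chr11:7197537-7197781, + strand: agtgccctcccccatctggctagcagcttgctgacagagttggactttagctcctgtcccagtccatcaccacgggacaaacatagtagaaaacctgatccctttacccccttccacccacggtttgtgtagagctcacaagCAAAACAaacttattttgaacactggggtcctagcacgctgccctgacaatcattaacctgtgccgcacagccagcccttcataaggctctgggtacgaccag
Angptl8 promoter, chr9:21835260-21835509, + strand: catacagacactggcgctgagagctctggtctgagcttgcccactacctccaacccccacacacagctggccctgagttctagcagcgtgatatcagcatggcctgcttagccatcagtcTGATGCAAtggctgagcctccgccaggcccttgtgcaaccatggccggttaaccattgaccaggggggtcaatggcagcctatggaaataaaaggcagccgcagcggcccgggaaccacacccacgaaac
The E-box CACGTG was in 3 of the 6 (Igfbp2, Fgf21 and Gdf15) and in 6.02% of all promoters. The cAMP response element core TGACG was in Fgf21 only (17.8% of all), and so was the TATA box core TATAAA (12.4%). The letters GTAAACA, searched as a FOXO site (3.17%), and the direct repeat with a 1-base spacer that PPARs bind (0.0335%) were in none of these 8 windows. No other letters were searched under the name of FOXO, so this does not mean that a window lacks a FOXO site. A match of letters is a description of the window, not a measured binding site.

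Angptl4, Igfbp1 and Angptl8 differed between fasted and fed cells in both zones at both times. Each of the other 6 genes passed the test in at most 2 of the 4 fasting comparisons. In pericentral cells 4 of 9 passed the test at 8 h, against 13.8% of 12477 genes tested: Angptl4 and Igfbp1 rose, and Angptl8 and Inhbe fell. At 24 h 5 of 9 passed there, against 21.8% of genes tested, with Igfbp2 added to those that rose. In periportal cells 3 of 9 passed at 8 h (14.4% of genes tested), Angptl4 and Igfbp1 upward and Angptl8 downward. At 24 h 5 of 9 passed there (19.6%): Angptl4, Igfbp1 and Igfbp2 rose, and Angptl8 and Fst fell. Fst was near the limit of detection and passed the filter on low counts through its fed and 8 h periportal libraries. Its place in this count is therefore a description only. All tests are edgeR quasi-likelihood tests with p-values adjusted over all genes tested, called at an adjusted p under 0.05. The 8 h and 24 h comparisons of a zone share the same fed libraries.

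**Figure D1:**
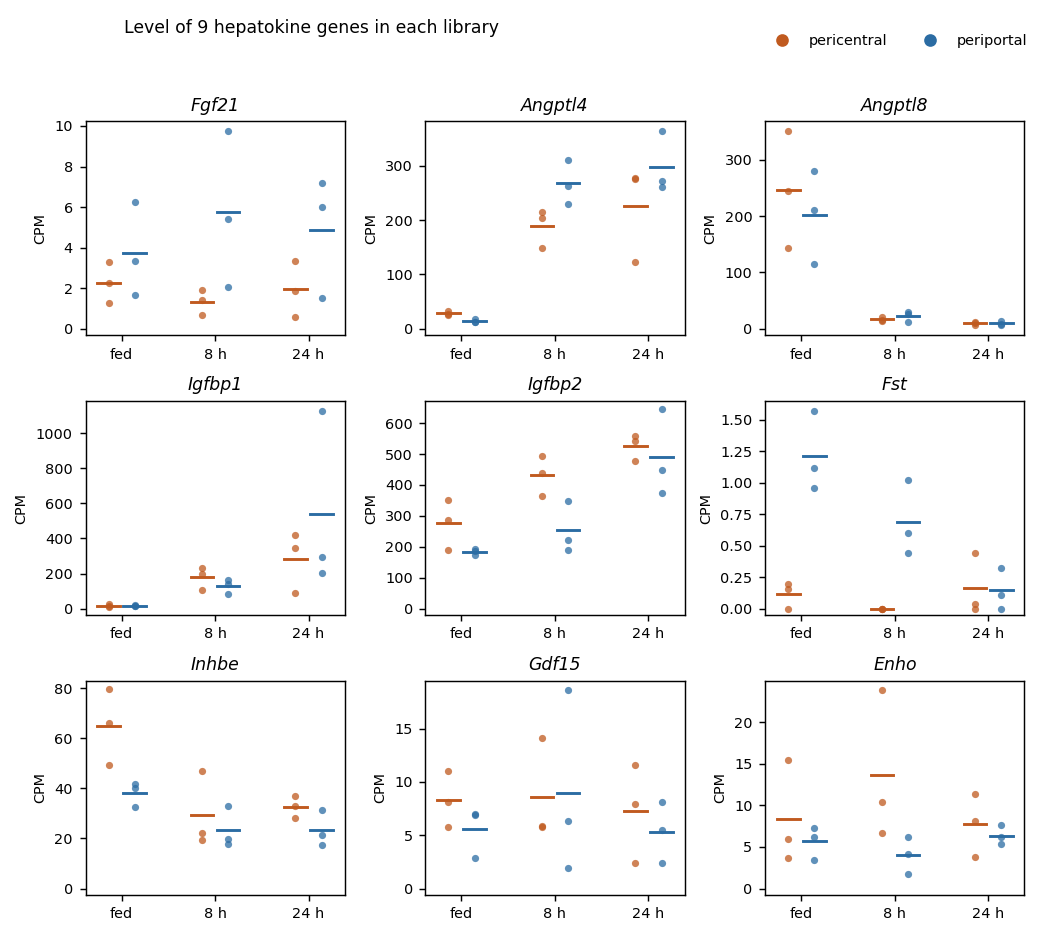
Level of each of the 9 genes in CPM (vertical axis from 0, a different scale for each gene) in the fed state and after 8 h and 24 h of fasting. Points are single libraries, orange for pericentral and blue for periportal, and bars are means of 3 libraries. Angptl8 lay at 115 to 351 CPM in fed libraries and at 29.2 CPM or less in fasted ones, while the highest Igfbp1 value, 1126 CPM, was that of 1 periportal library at 24 h.

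Angptl4 (ENSMUSG00000002289, chr17:33773750-33781830, - strand, 7 exons in GENCODE) encodes an inhibitor of lipoprotein lipase and is a textbook PPARalpha target. In fed pericentral libraries its level was 26.8, 25.3 and 32.6 CPM, and in fed periportal ones 12.5, 11.9 and 17.2 CPM. After 8 h it was 148, 204 and 215 CPM in pericentral and 229, 263 and 310 CPM in periportal libraries. After 24 h pericentral libraries held 278, 123 and 276 CPM and periportal ones 271, 260 and 364 CPM. Every fasted library lay above every fed one in both zones, and the 2 fed zones did not overlap.

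Pericentral Angptl4 rose by a log2 fold change of 2.74 within 8 h (SE 0.28, edgeR adjusted p = 1.51e-05), and 24 h gave 3.00 (SE 0.28, adjusted p = 6.18e-06). Periportal Angptl4 rose by 4.27 within 8 h (SE 0.30, edgeR adjusted p = 6.47e-07), and 24 h gave 4.43 (SE 0.30, adjusted p = 5.12e-07). The ratios of group means were 6.68 and 7.99 in pericentral and 19.3 and 21.5 in periportal cells. In 5 of the 6 groups the library with the highest Angptl4 also had the highest summed Kupffer cell and leukocyte markers. That sum was at most 29.2 CPM, and its part in the Angptl4 level was not tested. This tally was chosen after the values were seen, among those of the 9 genes with 8 marker lists. Without the pericentral replicate 2 of 24 h, which also had the lowest Angptl4 of its group, the pericentral change at 24 h was 3.29. In the fed state Angptl4 was lower in periportal than in pericentral cells, by a log2 fold change of -1.02 (SE 0.27, edgeR adjusted p = 0.0275). This was the 1 gene of the 9 called between the fed zones, against 8.01% of genes tested. The call was lost without any 1 of the 3 fed pericentral libraries, without fed periportal replicate 1 or 2, and without the filter on low counts (adjusted p up to 0.107).

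After 8 h the periportal Angptl4 libraries all lay above the pericentral ones, at 268 ± 40.8 against 189 ± 35.9 CPM (SD, n = 3), but the log2 difference of 0.51 did not pass (edgeR adjusted p = 0.284). At 24 h it was 0.40 (adjusted p = 0.474). The response differed between zones by a log2 value of 1.53 (SE 0.37) at 8 h and 1.43 (SE 0.37) at 24 h, larger in periportal cells. After adjustment over all genes by edgeR neither difference passed (unadjusted p = 0.000929 and 0.00161, adjusted p = 0.909 and 0.345). DESeq2's Wald test called both, with adjusted p of 0.0482 and 0.0303. In the order of the 6 groups, fed periportal was lowest, then fed pericentral, and the 4 fasted groups followed, with no call between any of those that were compared.

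Angptl8 (ENSMUSG00000047822, chr9:21835510-21837347, + strand, 4 exons) lies within Dock6 on the opposite strand and shares no exon base with it. It encodes the insulin- and feeding-induced partner of other angiopoietin-like proteins. Fed pericentral libraries held 144, 245 and 351 CPM and fed periportal ones 211, 280 and 115 CPM. After 8 h the values were 13.5, 14.9 and 21.0 CPM in pericentral and 29.2, 26.5 and 11.7 CPM in periportal libraries. After 24 h they were 6.80, 9.96 and 11.3 CPM in the first zone and 6.65, 13.0 and 8.14 CPM in the second. Fed and fasted libraries did not overlap in either zone, and the fed libraries varied by more than a factor of 2 within each zone.

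Pericentral Angptl8 fell, with log2 fold changes against fed of -3.90 after 8 h (SE 0.46, edgeR adjusted p = 0.000105) and of -4.73 after 24 h (SE 0.48, adjusted p = 2.46e-05). Periportal Angptl8 fell too, with -3.17 after 8 h (SE 0.45, edgeR adjusted p = 0.000425) and -4.44 after 24 h (SE 0.48, adjusted p = 4.12e-05). From 8 h to 24 h the log2 change was -0.82 (edgeR adjusted p = 0.272) in pericentral and -1.27 (adjusted p = 0.10) in periportal cells, which did not pass. No zone difference in Angptl8 passed in any state.

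Angptl4 and Angptl8 counts crossed over between the fed and fasted states. The log2 ratio of Angptl4 to Angptl8 counts within a library, which the fasting comparisons above already determine, ran from -4.55 to -2.42 over the 6 fed libraries. Over the 12 fasted libraries it ran from 2.97 to 5.48. The group means were -3.04 ± 0.55 and -3.79 ± 0.94 in fed pericentral and periportal cells, 3.52 ± 0.22 and 3.67 ± 0.93 at 8 h, and 4.53 ± 0.86 and 5.05 ± 0.64 at 24 h (SD, n = 3). The counts are not divided by gene length, so the sign of the ratio does not say which transcript was more abundant; its change between states does not depend on length.

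**Figure D2:**
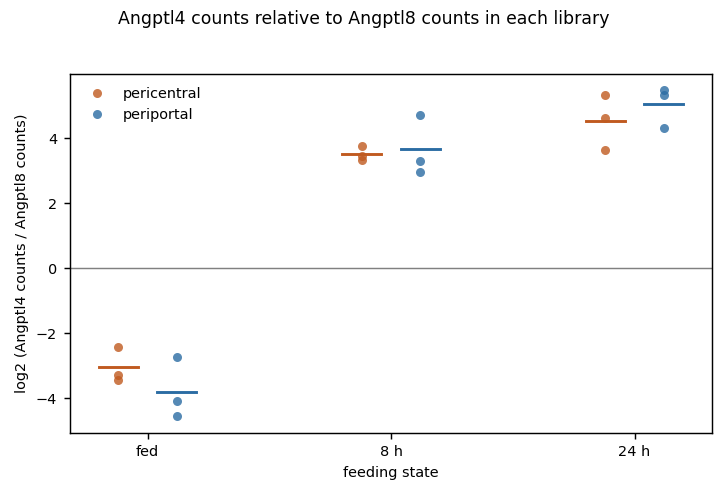
Log2 ratio of Angptl4 counts to Angptl8 counts (vertical axis) in each library by feeding state, with pericentral libraries in orange, periportal ones in blue and bars for group means. The 6 fed libraries lie at -2.42 or lower and the 12 fasted ones at 2.97 or higher.

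Of a list of 13 genes of the angiopoietin-like and lipase system, all tested, few passed, and the shares were near those over all genes tested in pericentral cells (13.8% at 8 h and 21.8% at 24 h). In pericentral cells 1 rose and 1 fell at 8 h (median log2 fold change -0.0858, against 0.00688 over all genes tested), and 2 rose and 1 fell at 24 h (median 0.129, against 0.00904). In periportal cells 1 rose at each time and none fell (medians 0.191 and 0.146, against 0.0148 and -0.00165). Of all genes tested 14.4% and 19.6% passed there. Lpl, lipoprotein lipase itself, rose in pericentral cells at 8 h by a log2 fold change of 2.14 (edgeR adjusted p = 0.00845), and Apoa5, an activator of that lipase, rose there at 24 h by 1.13 (adjusted p = 0.000342).

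A list of 15 PPARalpha target genes, all tested and not including Angptl4 or Fgf21, had 2 genes that rose at 8 h and 9 at 24 h in pericentral cells, and 3 and 10 in periportal cells, with none that fell. The median log2 fold changes were 0.309 and 0.947 in pericentral and 0.359 and 1.01 in periportal cells. Over all genes tested 13.8% and 21.8% passed in pericentral and 14.4% and 19.6% in periportal cells. The pericentral count of this list at 8 h was near that share. The medians over all genes tested were 0.00688 and 0.00904 in pericentral and 0.0148 and -0.00165 in periportal cells. The list of 15 insulin- and carbohydrate-induced lipogenic genes had 8 that fell at 8 h and 14 at 24 h in pericentral cells, and 7 and 13 in periportal cells, with 1 that rose, in periportal cells at 8 h. Its medians were -2.19 and -2.96 in pericentral and -1.33 and -2.75 in periportal cells. Fasn, fatty acid synthase, fell by 5.79 on the log2 scale at 24 h in pericentral cells (edgeR adjusted p = 2.95e-06), and Acot1, an acyl-CoA thioesterase, rose there by 4.09 (adjusted p = 0.00154).

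Igfbp1 (ENSMUSG00000020429, chr11:7197782-7202546, + strand, 4 exons) encodes an IGF-binding protein that insulin represses in the liver. Its level in fed libraries was 26.1, 12.8 and 6.66 CPM in pericentral and 14.6, 22.5 and 13.3 CPM in periportal cells. Pericentral libraries held 234, 200 and 107 CPM after 8 h, then 347, 87.1 and 421 CPM after 24 h. Periportal libraries held 143, 82.4 and 161 CPM after 8 h, then 202, 297 and 1126 CPM after 24 h. All fasted libraries were above all fed ones, but values within the 24 h groups spread widely, with pericentral replicate 2 low and periportal replicate 3 high.

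Pericentral Igfbp1 rose by a log2 fold change of 3.57 within 8 h (SE 0.76, edgeR adjusted p = 0.00681), and the 24 h value was 4.23 (SE 0.79, adjusted p = 0.00195). Without fed pericentral replicate 1 these values were 4.22 and 4.87. Periportal Igfbp1 rose by 2.94 within 8 h (SE 0.74, edgeR adjusted p = 0.0179), and the 24 h value was 5.01 (SE 0.81, adjusted p = 0.000912). Without periportal replicate 3 of 24 h the latter was 3.89 (edgeR adjusted p = 0.00239). The first of these periportal calls did not hold without fed periportal replicate 1 or 3 (adjusted p up to 0.0744). Between 8 h and 24 h in periportal cells the libraries did not overlap, with means of 129 ± 41.2 and 542 ± 508 CPM (SD, n = 3). The log2 change of 2.07 did not pass (edgeR adjusted p = 0.0983), and without periportal replicate 3 of 24 h it was 0.95. The log2 zone difference at 24 h was 0.93 with that library and -0.19 without it, and neither passed.

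Igfbp2 (ENSMUSG00000039323, chr1:72824503-72852474, + strand, 4 exons), another binding protein of the IGFs, changed less and differed between zones. Pericentral libraries held 287, 189 and 351 CPM when fed, 439, 494 and 365 CPM after 8 h, and 478, 559 and 543 CPM after 24 h. Periportal libraries held 174, 192 and 185 CPM when fed, 349, 223 and 189 CPM after 8 h, and 373, 448 and 647 CPM after 24 h. In both zones the 24 h libraries lay above the fed ones, and at 8 h the pericentral libraries lay above the periportal ones.

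At 24 h Igfbp2 rose by a log2 fold change of 0.93 (SE 0.25, edgeR adjusted p = 0.0127) in pericentral cells, a call lost without fed pericentral replicate 2 (adjusted p = 0.0563). In periportal cells it rose by 1.41 (SE 0.25, edgeR adjusted p = 0.000949). From 8 h to 24 h it rose by 0.95 in periportal cells (SE 0.25, edgeR adjusted p = 0.0295), the 1 gene of the 9 called there, against 7.46% of genes tested. That call was lost without periportal replicate 2 or 3 of either fasted state, with no filter, and with only the compared groups fitted (adjusted p up to 0.127). Averaged over the 3 states, Igfbp2 was lower in periportal cells, with a log2 difference of -0.49 (SE 0.14, edgeR adjusted p = 0.0217), a call kept in all 23 alternatives run. Within states the log2 zone difference was -0.59 when fed (edgeR adjusted p = 0.175), -0.77 at 8 h (adjusted p = 0.0708) and -0.11 at 24 h (adjusted p = 0.884). DESeq2's Wald test called the 8 h difference (adjusted p = 0.0196). So did edgeR without fed pericentral replicate 2, periportal replicate 1 of 8 h or periportal replicate 3 of 24 h.

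Of the 13 other genes listed for the IGF system 11 were tested, and Igf2 and Igfbp6 were too low. In pericentral cells 2 rose and 1 fell at 8 h and 3 rose at 24 h, and in periportal cells 2 rose and 3 fell at each time. The median log2 fold changes were -0.249, 0.567, 0.0075 and 0.254 in that order. The shares of all genes tested that passed were 13.8%, 21.8%, 14.4% and 19.6%. Irs2, a docking protein of the insulin receptor, rose in all 4 comparisons, by log2 fold changes of 3.76 and 3.64 in pericentral and 2.75 and 3.04 in periportal cells (edgeR adjusted p from 0.000364 to 0.00262). The periportal call at 24 h was lost when only the groups compared were fitted (edgeR adjusted p = 0.0568), and without periportal replicate 3 of 24 h the value was 2.22. Without fed periportal replicate 3 the periportal values were 3.36 and 3.64. Insr, the insulin receptor, rose in all 4 as well, by 0.57 and 0.60 and by 0.59 and 0.37. Igfals, which holds circulating IGF in its ternary complex, fell in periportal cells (log2 fold changes of -0.91 and -1.01, edgeR adjusted p = 0.00515 and 0.00183) and in pericentral cells at 8 h (-0.71, adjusted p = 0.0225). The pericentral Igfals call was lost without fed pericentral replicate 3, without pericentral replicate 1 or 2 of 8 h, and with only the groups compared fitted. Igf1 rose by 0.73 in pericentral cells at 24 h (edgeR adjusted p = 0.0028).

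**Figure D3:**
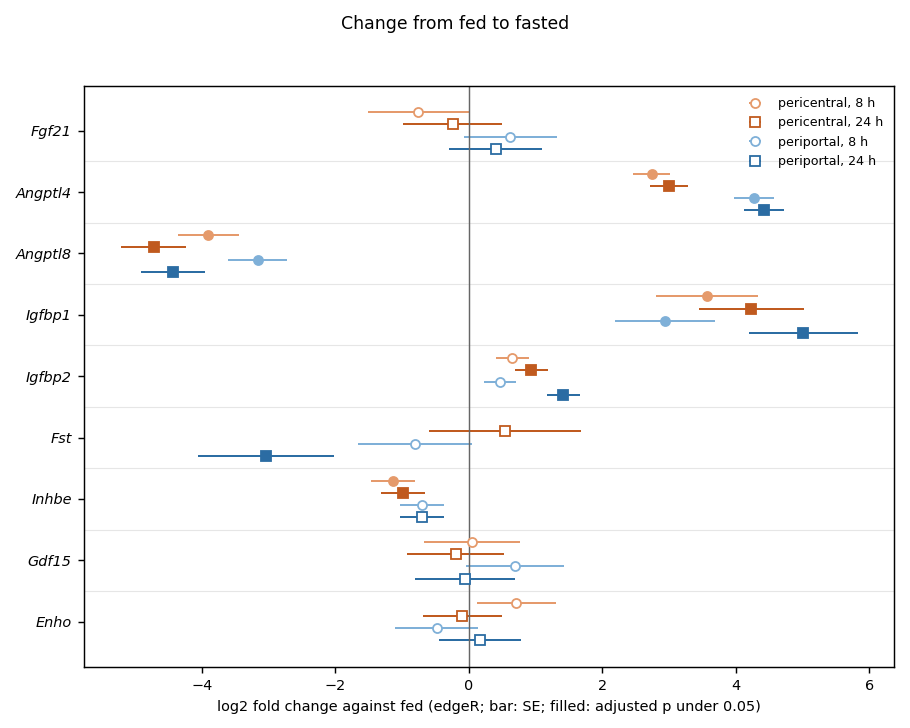
Log2 fold change of each gene after 8 h (circles) and 24 h (squares) of fasting against fed, in pericentral and periportal cells, with bars for the SE and filled symbols for edgeR adjusted p under 0.05. Angptl4 and Igfbp1 lie on the right and Angptl8 on the left in all 4 comparisons; Fst in pericentral cells at 8 h, where no library held a count, is not drawn.

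Inhbe (ENSMUSG00000047492, chr10:127348857-127354411, - strand, 2 exons) encodes the beta E subunit of activins, made mainly by the liver. Its level was 49.3, 79.6 and 66.1 CPM in fed pericentral and 41.8, 40.1 and 32.5 CPM in fed periportal libraries. Pericentral libraries held 19.2, 22.1 and 47.0 CPM after 8 h, then 36.9, 32.9 and 28.1 CPM after 24 h. Periportal libraries held 32.8, 19.7 and 17.8 CPM after 8 h, then 21.5, 31.4 and 17.3 CPM after 24 h. The 3 fed pericentral libraries lay above all others, the nearest being the third pericentral library of 8 h.

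Pericentral Inhbe fell, with log2 fold changes of -1.14 after 8 h (SE 0.33, edgeR adjusted p = 0.0318) and -0.99 after 24 h (SE 0.33, adjusted p = 0.0425). The first of these calls did not hold without fed pericentral replicate 2 or 3 and without pericentral replicate 1 or 2 of 8 h, with no filter on low counts, or with only the compared groups fitted (adjusted p up to 0.131). The second did not hold without fed pericentral replicate 2 or 3, without any 1 of the 3 pericentral libraries of 24 h, and without fed periportal replicate 1 or 2 or periportal replicate 1 of 24 h, or with no filter (adjusted p up to 0.135). In periportal cells the log2 changes were -0.70 at both times (edgeR adjusted p = 0.186 and 0.158). The log2 zone difference was -0.77 in fed cells (edgeR adjusted p = 0.186) and -0.53 averaged over the states (adjusted p = 0.065).

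Fst (ENSMUSG00000021765, chr13:114452290-114458951, - strand, 6 exons) encodes follistatin, an activin antagonist that glucagon is known to raise in the liver. It shares 115 of its 4589 exon bases with the antisense gene Gm47040, and it passed the filter on low counts through its fed and 8 h periportal libraries. Tests that set these libraries against others were therefore made on a gene that had to differ, and their p-values are given as a description only. Fed periportal libraries held 1.57, 1.12 and 0.955 CPM, and those of 8 h 0.444, 1.02 and 0.605 CPM. At 24 h periportal libraries held 0.112, 0 and 0.322 CPM. Pericentral libraries held 0, 0.197 and 0.156 CPM fed, no count in any library at 8 h, and 0.0391, 0.441 and 0 CPM at 24 h. Fst was thus near the limit of detection in pericentral cells in all states and in periportal cells at 24 h.

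At 8 h Fst had 47.3 estimated counts over the 3 periportal libraries against 0 over the pericentral ones (edgeR adjusted p = 0.0218). Set against a floor of 3 counts over the pericentral group, it was at least 14.2-fold higher. It was the 1 gene of the 9 past the threshold between zones at 8 h, where 7.14% of genes tested passed, and nothing is read from that count. The call was lost without any 1 of the pericentral libraries of 8 h or without periportal replicate 2 of 8 h (adjusted p up to 0.0662). In fed cells the libraries did not overlap either, with 92.0 counts in periportal and 8.79 in pericentral cells. The log2 difference of 3.35 (SE 1.02) had an edgeR adjusted p of 0.0593. At 24 h the counts were 9.69 in periportal and 13.1 in pericentral cells, with a log2 difference of -0.24 (edgeR adjusted p = 0.947). Of the pericentral counts 12.0 came from replicate 2, whose zonal markers stood apart, and of the periportal ones 7.23 came from replicate 3. The 24 h comparison of Fst therefore rests largely on single libraries.

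Averaged over the 3 states, 3 of the 9 genes passed the threshold between zones, where 20.3% of genes tested did. Fgf21 was higher and Igfbp2 lower in periportal cells. The third was Fst (edgeR adjusted p = 0.0081, and 0.0722 without periportal replicate 3 of 24 h), with the limit set by its filter. In periportal cells Fst fell from fed to 24 h, with a log2 fold change of -3.04 (SE 1.02, edgeR adjusted p = 0.0493). This call lay at the threshold and was lost in 12 of 24 alternatives, among them those that left out 1 of any of the 6 fed or 8 h periportal libraries, periportal replicate 1 or 2 of 24 h, or fed pericentral replicate 2 or 3, and that with no filter (adjusted p up to 0.141). The value was -4.48 without periportal replicate 3 of 24 h and -2.42 without replicate 2.

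Of 16 other genes listed for the activin and follistatin system 13 were tested, and Inha, Fstl3 and Acvr1c were too low. In pericentral cells 1 rose and 2 fell at each time, and in periportal cells 2 fell at each time. The median log2 fold changes were 0.107 and 0.194 in pericentral and -0.0242 and -0.0465 in periportal cells. Of all genes tested 13.8% and 21.8% passed in the first zone and 14.4% and 19.6% in the second. The 2 genes that fell in all 4 comparisons encode activin subunits, as Inhbe does. Inhba, the beta A subunit, fell, with log2 fold changes at 8 h and 24 h of -1.70 and -2.61 in pericentral and -1.14 and -3.10 in periportal cells (edgeR adjusted p from 1.5e-05 to 0.015). Its periportal call at 8 h was lost without fed periportal replicate 1 and without periportal replicate 2 or 3 of 8 h. Inhbc, the beta C subunit, fell too, with -0.95 and -0.83 and with -1.11 and -1.22 (edgeR adjusted p from 9.81e-05 to 0.00165).

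Fgf21 (ENSMUSG00000030827, chr7:45613886-45615490, - strand, 3 exons) encodes the hormone FGF21, known both as a fasting signal downstream of PPARalpha and as a response to sugar and to amino acid stress. Pericentral libraries held 2.25, 1.26 and 3.27 CPM when fed, 0.696, 1.39 and 1.89 CPM after 8 h, and 1.87, 0.588 and 3.36 CPM after 24 h. Periportal libraries held 6.23, 3.35 and 1.65 CPM when fed, 9.77, 2.04 and 5.40 CPM after 8 h, and 1.51, 7.19 and 5.98 CPM after 24 h. Libraries within a group differed by factors as large as those between states, and only at 8 h did all periportal values lie above all pericentral ones.

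No change of Fgf21 with fasting passed the test. In pericentral cells the log2 changes were -0.76 (edgeR adjusted p = 0.587) at 8 h and -0.24 (adjusted p = 0.857) at 24 h, and in periportal cells 0.62 (adjusted p = 0.624) and 0.40 (adjusted p = 0.746). With SEs of 0.69 to 0.76 on the log2 scale, changes of the size seen for Inhbe would not have been resolved. Averaged over the states, Fgf21 was higher in periportal cells by a log2 fold change of 1.40 (SE 0.42, edgeR adjusted p = 0.0293). This call was lost in 10 of 23 alternatives, namely with no filter and in 9 that left out 1 library: fed pericentral replicate 1 or 2, fed periportal replicate 1, pericentral replicate 1 or 2 of 8 h, periportal replicate 1 of 8 h, pericentral replicate 1 of 24 h, or periportal replicate 2 or 3 of 24 h (adjusted p up to 0.0671). Within states the log2 zone difference was 0.72 when fed (edgeR adjusted p = 0.638). After 8 h of fasting it was 2.11 (SE 0.75, edgeR adjusted p = 0.113), and after 24 h 1.37 (adjusted p = 0.369). DESeq2's Wald test called the 8 h difference (adjusted p = 0.018).

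Of 7 genes listed for the FGF21 receptor complex and its proteases 6 were tested, and Fap was too low. In pericentral cells none passed at 8 h, and 2 rose and 1 fell at 24 h. In periportal cells 1 rose at 8 h and 1 fell at 24 h. The median log2 fold changes were -0.0657 and 0.268 in pericentral and 0.321 and 0.0698 in periportal cells. Of all genes tested 13.8% and 21.8% passed in the first zone and 14.4% and 19.6% in the second. Fgfr3, a receptor of FGFs, fell at 24 h in both zones, with log2 fold changes of -1.71 in pericentral and -1.64 in periportal cells (edgeR adjusted p = 0.000152 and 0.000261).

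Gdf15 (ENSMUSG00000038508, chr8:70629393-70632456, - strand, 3 exons) encodes a stress hormone that acts on appetite through the hindbrain. Pericentral libraries held 5.80, 11.0 and 8.13 CPM when fed, 14.1, 5.86 and 5.76 CPM after 8 h, and 7.89, 2.39 and 11.6 CPM after 24 h. Periportal libraries held 6.93, 6.99 and 2.90 CPM when fed, 18.6, 6.36 and 1.91 CPM after 8 h, and 2.35, 5.48 and 8.14 CPM after 24 h. All groups overlapped, and no comparison passed by edgeR. The log2 change from fed to 8 h in periportal cells was 0.69 (SE 0.74, edgeR adjusted p = 0.607) with periportal replicate 1 of 8 h and -0.42 without it. That library also had the highest summed level of 7 immediate early genes, 511 CPM against 313 and 168 CPM in the other two of its group. The part of that signal in the Gdf15 value was not tested.

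Of 13 integrated stress response targets, all tested, 3 rose and 2 fell at 8 h and 4 rose and 2 fell at 24 h in pericentral cells. In periportal cells 1 rose and 1 fell at 8 h, and 3 rose and 1 fell at 24 h. The medians lay between -0.0848 and 0.222. Over all genes tested 13.8% and 21.8% passed in pericentral and 14.4% and 19.6% in periportal cells. The targets did not move one way: Sesn2, a leucine sensor, rose in all 4 comparisons by log2 fold changes of 1.33 to 2.03 (edgeR adjusted p from 7.94e-06 to 0.000395). Ddit3, the transcription factor CHOP, fell in pericentral cells, with -1.26 and -0.88 (edgeR adjusted p = 0.000312 and 0.00331).

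Enho (ENSMUSG00000028445, chr4:41638144-41640324, - strand, 2 exons) encodes adropin and shares 15 of its 1269 exon bases with Dnaic1 on the opposite strand. Pericentral libraries held 3.70, 5.98 and 15.4 CPM when fed, 23.8, 10.4 and 6.69 CPM after 8 h, and 11.4, 8.09 and 3.75 CPM after 24 h. Periportal libraries held 3.46, 7.31 and 6.21 CPM when fed, 4.16, 6.18 and 1.77 CPM after 8 h, and 7.60, 6.19 and 5.33 CPM after 24 h. The zones did not overlap at 8 h, where the log2 difference of periportal against pericentral was -1.75 (SE 0.62, edgeR adjusted p = 0.113). DESeq2's Wald test called this difference (adjusted p = 0.0471). No fasting change of Enho passed, and the largest in size, 0.71 on the log2 scale from fed to 8 h in pericentral cells, had an edgeR adjusted p of 0.499.

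**Figure D4:**
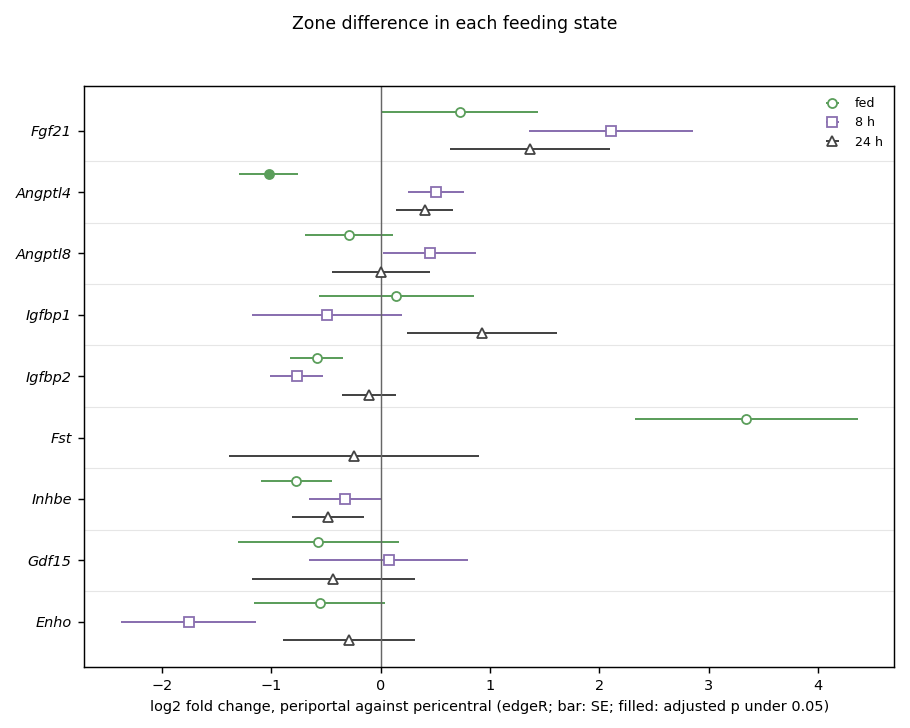
Log2 fold change of periportal against pericentral cells for each gene in the fed state (circles), at 8 h (squares) and at 24 h (triangles), with bars for the SE and filled symbols for edgeR adjusted p under 0.05. Fgf21 lies on the right in all 3 states, Igfbp2, Inhbe and Enho on the left; the 8 h value of Fst is not drawn because its pericentral libraries held no count.

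At 24 h none of the 9 genes was called between zones, against 4.17% of genes tested. None had an unadjusted edgeR p under 0.05 there, against 2098 of 12477 genes tested. DESeq2 and limma-voom called none there either. None was called between 24 h and 8 h in pericentral cells (9.71% of genes tested), and DESeq2 called 1 and limma-voom none. Only Fst had an unadjusted edgeR p under 0.05 there, against 3018 of the genes tested. For the difference between zones in the response, edgeR called none of the 9 from fed to 8 h, from fed to 24 h or from 8 h to 24 h, against 0.00%, 0.0160% and 0.00% of genes tested. At an unadjusted edgeR p under 0.05 there were 1, 2 and 1 of the 9, against 680, 962 and 746 of 12477 genes tested. These were Angptl4 in the first, Angptl4 and Fst in the second, and Fst in the third. The Fst tests carry the limit set by its filter. DESeq2 called 1, 1 and 0, and limma-voom called none. The shares given here are those of edgeR, and none is given for DESeq2 or limma-voom.

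Of a list of 20 other hepatokines 18 were tested. In pericentral cells 2 fell at 8 h and 1 at 24 h, and in periportal cells 1 fell at 8 h and 2 fell and 1 rose at 24 h. Over all genes tested 13.8% and 21.8% passed in pericentral and 14.4% and 19.6% in periportal cells. The median log2 fold changes were -0.149, -0.035, 0.204 and 0.328 in that order. Manf, an endoplasmic reticulum stress factor that cells also secrete, fell in all 4 comparisons, with log2 fold changes of -1.94 and -2.37 in pericentral and -1.43 and -2.26 in periportal cells (edgeR adjusted p from 2.2e-05 to 0.00148).

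Of 16 transcriptional regulators named for these hepatokines, 1 rose and 4 fell at 8 h and 6 rose and 5 fell at 24 h in pericentral cells. In periportal cells 1 rose and 2 fell at 8 h, and 5 rose and 6 fell at 24 h. The medians were -0.267, -0.145, -0.135 and -0.247. The shares of all genes tested that passed were 13.8%, 21.8%, 14.4% and 19.6% in that order. Srebf1, the insulin-responsive activator of lipogenesis, fell, with log2 fold changes of -3.06 and -3.09 in pericentral and -3.78 and -3.85 in periportal cells (edgeR adjusted p from 1.26e-05 to 7.9e-05). Foxo1, which insulin restrains and which acts on Igfbp1, rose at 24 h by 1.27 and 1.37 (edgeR adjusted p = 8.57e-05 and 5.68e-05). Ppargc1a, a coactivator of the fasting liver, rose at 24 h by 1.68 in each zone (edgeR adjusted p = 0.00016 and 0.000153), and Mlxipl, the carbohydrate-responsive factor ChREBP, fell, with -1.31 and -1.05 (edgeR adjusted p = 0.00176 and 0.00862).

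**Figure D5:**
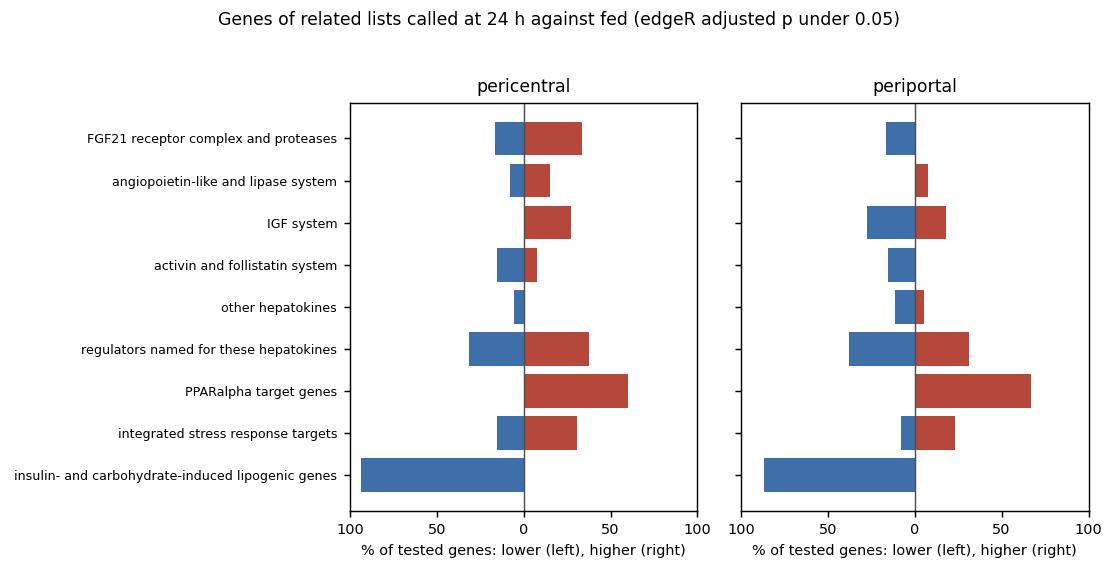
Percentage of tested genes of each list called lower (blue, to the left) or higher (red, to the right) at 24 h against fed, in pericentral and periportal cells, by edgeR at adjusted p under 0.05. Over all genes tested 21.8% in pericentral and 19.6% in periportal cells were called in either direction. The lipogenic list lies on the left (14 and 13 of 15 genes) and the PPARalpha list on the right (9 and 10 of 15); the other lists hold calls in few genes or in both directions.

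The genes with patterns most like those of each member were taken by Pearson's r of log2 CPM over the 18 libraries, which share groups and the zonal and fasting differences, among 8508 genes. For Angptl4 they were Cdip1 (r = 0.977), Slc25a34 (0.967) and Sun2 (0.965), and for Angptl8 Tuba1c (0.975), Mid1ip1 (0.972) and Fasn (0.966). For Igfbp1 they were Chic2 (0.938), Wbp1l (0.934) and Aff4 (0.927), and for Igfbp2 Slc25a33 (0.902), Rnf114 (0.897) and Rcl1 (0.894). Fst came closest to Iyd (0.894), Inhbe to Synj2 (0.86), Fgf21 to Slc39a6 (0.841), Enho to Naprt (0.809) and Gdf15 to Ddhd1 (0.748). After removal of group means, r was 0.75, 0.511, 0.817, 0.725 and 0.76 for these pairs in that order. For Angptl4 with Cdip1 it was 0.625, for Angptl8 with Tuba1c 0.482, for Igfbp1 with Chic2 0.643 and for Igfbp2 with Slc25a33 0.461. For Fgf21, Enho and Gdf15 the likeness thus lay largely in differences between libraries of a group. Within the set, Angptl4 and Igfbp1 had an r of 0.89, Angptl4 and Angptl8 of -0.92, and Angptl8 and Igfbp1 of -0.92. With group means removed, which takes out the fed-fast difference, r was 0.42, -0.24 and -0.30 for these pairs.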

How the data were processed

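The data were 18 RNA-seq libraries of total RNA from isolated mouse hepatocytes, 3 in each of 6 groups. The values deposited by the authors are estimated counts for each Ensembl gene, not whole in every entry, in a single table. Kallisto 0.46.0 and the mm10 build are named per the submitters' processing notes; how transcripts were summed to genes is not given in the sources used here. Estimated counts let reads of overlapping or similar genes be shared between them, and the strand setting is not given in the sources used here.

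Estimated counts were rounded and fitted in edgeR 4.0.16 (R 4.3.3; TMM scaling, filterByExpr, robust quasi-likelihood, 1 coefficient per group, Benjamini-Hochberg over 12477 genes tested, which held at least 99.95% of each library's counts). The SE is the log2 fold change divided by the square root of F. All 9 genes were tested. No interval or fitted fold is given for a comparison with a group at 0 counts; the floor was 3 counts over a group and covers counting error only. The fit was tested on simulated data.

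The members and gene lists were chosen with earlier results of these data known. Of each list up to 5 genes called in a fasting comparison could be named, in order of the largest absolute log2 fold change (mean of at least 1 CPM in some group), and the text gives some of these. The 3 most alike genes needed a mean of at least 5 CPM in some group. At 24 h the deviations of same-numbered libraries of the 2 zones had r of 0.121, 0.165 and 0.147. These passed the rule used for pairing (every pair over 0.1), and those of the fed and 8 h states did not (r from -0.0112 to 0.0705). The numbers are not stated to pair libraries, and same-numbered pairs over all groups reached 0.206. The 24 h values therefore do not settle whether those libraries are paired. Alternatives were DESeq2 size factors, no filter on low counts, a replicate block, DESeq2 1.42.0, limma-voom 3.58.1, a fit of only the groups compared, and leaving out each library. Gene positions are from GENCODE for GRCm38 (mm10), and promoters from RefSeq.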

Additional observations from a re-analysis of the deposited data

How the results depend on the processing

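Of 66 followed changes of the 9 genes (called, or at least 0.6 in size on the log2 scale), 23 were called and 13 of these kept their call in all alternatives: Angptl4 and Angptl8 in all 4 fasting comparisons, Igfbp1 except periportal at 8 h, and Igfbp2 at 24 h in periportal cells and averaged over states. The other 10 lost it somewhere; the cause was not tested, except that each alternative leaving out a library has fewer samples. Between fed zones the number of the 9 called was 1, and 0 without the filter, 2 by DESeq2, 2 by limma-voom, 3 with only the groups compared, and 0 to 2 when 1 library was left out. Between zones at 8 h DESeq2 called 4, and leaving out a library gave 0 to 2. Averaged over states, leaving out a library gave 1 to 3. From 8 h to 24 h in periportal cells none was called without the filter or with only the groups compared, that is 0 in each, 3 by DESeq2, and 0 to 1 when a library was left out. In pericentral cells DESeq2 called 1 there. Leaving out a library gave 3 to 5 in pericentral cells at 8 h and at 24 h, 2 to 3 in periportal cells at 8 h and 4 to 5 at 24 h. For the zone difference in the response DESeq2 called 1 at 8 h and 1 at 24 h, both Angptl4. The shares over all genes given in the Results are those of the main edgeR fit. No share is given for the other settings, so nothing is read from their counts about the 9 genes.

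6 values changed sign when 1 library was left out, none of them called. Leaving out each library in turn, from fed to 8 h in periportal cells Fgf21 ran from -0.0038 to 1.2 and Gdf15 from -0.42 to 1.16. Gdf15 ran from -1.22 to 0.36 from 8 h to 24 h in periportal cells, and from -0.48 to 1.2 for the zone difference in the response at 8 h. The end of each of these ranges with the other sign is that without periportal replicate 1 of 8 h. Igfbp1 ran from -0.19 to 1.32 between zones at 24 h and from -0.34 to 1.17 for the zone difference in the response, with the lower end without periportal replicate 3 of 24 h. Of 51 smaller changes 33 changed sign somewhere.

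Over all 45 pairs of same-numbered libraries of 2 groups the deviations had a median r of 0.0321 (range -0.12 to 0.206, 7 pairs over 0.1). The numbers were therefore not taken to pair libraries in the main fit. Between zones at 24 h, where every pair was over 0.1, the block called 0 of the 9, as the fit without it did. With the replicate as a block, the number of the 9 called was 3 in pericentral cells at 8 h and 4 at 24 h, and 4 in periportal cells at 24 h, without Inhbe in the first 2 (edgeR adjusted p = 0.057 and 0.0664) and without Fst in the third (0.0591), and it was as before in the other comparisons. At these depths Fst had no count in pericentral libraries at 8 h, and its fold against them is given as a bound.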

Other observations

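In 5 of the 6 groups the library with the highest Gdf15 also had the highest summed level of the 7 immediate early genes (Fos, Jun, Egr1, Ier2, Junb, Fosb and Atf3). Among such tallies of the 9 genes with 8 marker lists, the only other one that reached 5 of 6 was that of Angptl4 with Kupffer cell and leukocyte markers. Some of the Gdf15 matches were near ties. In fed pericentral cells the early gene sums of replicates 1 and 2 were 102 and 103 CPM. In fed periportal cells the Gdf15 levels of replicates 1 and 2 were 6.93 and 6.99 CPM. Both tallies were chosen after the values were seen, and the part of the immediate early signal in the Gdf15 level was not tested.

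Fgfr2, a receptor of FGFs, had a mean of 40.8 CPM in fed periportal and 1.24 CPM in fed pericentral cells. At 24 h pericentral libraries held 2.38, 9.41 and 4.35 CPM, and periportal libraries had a mean of 43.9 CPM. The log2 fold change from fed to 24 h in pericentral cells was 2.13 (edgeR adjusted p = 0.00289). Without pericentral replicate 2, whose zonal markers stood apart, it was 1.42 (edgeR adjusted p = 0.010).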
